A study of Mus musculus with 12 samples.

Results

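The CC chemokines measured here were *Ccl2*, *Ccl7*, *Ccl8*, *Ccl11*, *Ccl5*, *Ccl9*, *Ccl17*, *Ccl20* and *Ccl25*. They were taken as every probe whose gene name in the scanner files was one of these symbols, which gave 13 probes of 9 genes among 41174 probes and 21589 gene symbols. C57MG, a mouse mammary epithelial cell line, was treated for 24 h in DMEM without supplements with bovine serum albumin (BSA) as the vehicle control, recombinant human Rspo2 at 100 ng/ml, recombinant mouse Wnt3a at 100 ng/ml, or both proteins together at those doses. Each of the 4 groups held 3 biological replicates, and the RNA of each was hybridized to its own one-colour Agilent array. All samples came from 1 cell line, so the spread between replicates is that between cultures of this line.

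CC chemokines are small secreted proteins with adjacent cysteines near their amino terminus, and they attract leukocytes through G protein-coupled CC receptors. Epithelial cells and fibroblasts release several of them when inflammatory or interferon signals activate NF-kB, IRF and STAT factors. Wnt3a activates β-catenin signalling through Frizzled and LRP co-receptors, and R-spondins such as Rspo2 enhance the response to Wnt by stabilizing its receptors at the cell surface. Several CC chemokine genes lie in a cluster on mouse chromosome 11. In the array annotation, whose genome build is not named in the files, the probes of *Ccl2* and *Ccl7* were 9.854 kb apart, those of *Ccl7* and *Ccl11* 15.57 kb, and those of *Ccl11* and *Ccl8* 54.04 kb. The probe of *Ccl8* lay 1398 kb from that of *Ccl5*, which lay 48.93 kb from that of *Ccl9*. *Ccl17* and *Ccl25* are on chromosome 8 and *Ccl20* is on chromosome 1.

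The RefSeq promoter table (GRCm38.p6) held 5 of the 9 genes. The 250 bases before the start are shown for *Ccl8*, *Ccl17* and *Ccl20*, whose signals fell, and for *Ccl9*, whose values ran the other way. *Ccl25*, whose probes disagreed, is not printed. Capitals mark the letters of 3 motifs: CTTTGA (TCF/LEF core) and TGANTCA (AP-1 type) on both strands, and TATAAA on the gene's strand.
Ccl8 (chr11:82114935-82115184, plus strand): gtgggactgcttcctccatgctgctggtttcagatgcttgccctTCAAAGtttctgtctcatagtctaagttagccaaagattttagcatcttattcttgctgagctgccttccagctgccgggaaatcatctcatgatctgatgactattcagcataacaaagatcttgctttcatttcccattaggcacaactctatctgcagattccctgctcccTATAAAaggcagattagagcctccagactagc
Ccl9 (chr11:83578637-83578886, minus strand): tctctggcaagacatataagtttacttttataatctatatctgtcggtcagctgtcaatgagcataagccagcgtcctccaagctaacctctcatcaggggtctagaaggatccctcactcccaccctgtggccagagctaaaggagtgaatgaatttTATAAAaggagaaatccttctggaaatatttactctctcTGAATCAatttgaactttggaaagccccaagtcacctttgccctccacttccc
Ccl17 (chr8:94810203-94810452, plus strand): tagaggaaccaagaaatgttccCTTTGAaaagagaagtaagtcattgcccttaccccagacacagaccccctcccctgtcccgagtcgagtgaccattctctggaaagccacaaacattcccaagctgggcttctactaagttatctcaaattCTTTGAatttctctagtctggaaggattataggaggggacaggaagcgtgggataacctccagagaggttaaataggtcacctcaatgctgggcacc
Ccl20 (chr1:83116516-83116765, plus strand): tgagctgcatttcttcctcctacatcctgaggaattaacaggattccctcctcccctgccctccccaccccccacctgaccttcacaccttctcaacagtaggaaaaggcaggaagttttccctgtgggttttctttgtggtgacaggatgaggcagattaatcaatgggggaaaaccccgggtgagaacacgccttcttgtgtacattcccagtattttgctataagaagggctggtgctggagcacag
The TCF/LEF core was found in *Ccl17*, 228 and 97 bases before the start, in *Ccl8* on the opposite strand, 206 bases before it, in *Ccl25*, 68 bases before one of the 2 starts the table gives for it, and in 13.8% of all 32851 promoters over the same length. TATAAA was found in *Ccl8*, 32 bases before the start, in *Ccl9*, 92 bases before it, in *Ccl25*, 16 bases before a start, and in 7.59% of all promoters. The AP-1 type letters were found in *Ccl9*, 53 bases before the start, and in 6.75% of all promoters. None of these letters was found in the *Ccl20* window. No matches overlapped, and a match is a description of the letters only.

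Signals are Agilent processed signals in arbitrary units, and changes are differences of log2 signal after subtraction of each array's 75th percentile, which ranged from 773.9 to 1146 units. A change was called at an adjusted p under 0.05 (limma over all detected probes, Benjamini-Hochberg) with at least a 2-fold difference. A probe counted as detected if the scanner software marked it well above background in every replicate of some group and values were left on at least 2 arrays of each group, which held for 22751 probes. Of the 13 chemokine probes, 12 probes of 8 genes were detected. The exception was *Ccl11* (eotaxin, an attractant of eosinophils), which was well above background on 0 of 12 arrays, with signals of 3.077 to 10.96 units, and was not tested. *Ccl20* and *Ccl25* probe 3 were well above background on all 3 arrays with BSA only, so they could enter the test only through the group where they were high. The arrays lay on 3 slides that did not hold the groups evenly: the BSA arrays and Rspo2 replicate 1 on slide 1, Rspo2 replicates 2 and 3 and Wnt3a replicates 1 and 2 on slide 2, and Wnt3a replicate 3 and the arrays with both proteins on slide 3. Slide was therefore tested as a term in the fit, and calls against BSA that were lost with it are named. Rspo2 replicate 1 was the only treated array on a slide with BSA arrays. All changes against BSA with this term thus rest on that array, and the term cannot fully separate slide from treatment. For *Ccl2* with Rspo2, the change with the term was -1.21, as was the difference of that array from the BSA arrays on slide 1. In these bulk samples, fewer expressing cells and less RNA per cell cannot be told apart.

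The cells were checked against markers of mammary and other cell types. Of 6 basal or myoepithelial markers, the keratin gene *Krt14*, *Krt17*, *Acta2* and *Trp63* were well above background on 12 of 12 arrays. *Krt5* was so on 10 arrays and *Myh11* on 2. Of 4 endothelial markers only *Cdh5* was well above background on 12 arrays, with median signals of 2601 units with BSA and 1654 with both proteins. Of 7 fibroblast markers, 5 were well above background on 12 of 12 arrays. Of 6 luminal markers only *Krt8* was, and the defining epithelial adhesion gene *Cdh1* was well above background on 0 arrays and *Epcam* on 2. Of 8 leukocyte markers, *Cd68*, *Cd14* and *Lyz2* were well above background on all arrays, whereas *Ptprc*, *Emr1* and *Itgam*, which define leukocytes and macrophages, were so on 1 array each. *Csf1r*, the receptor of a macrophage growth factor, and *Cd3e*, a T cell receptor subunit, were so on 11 arrays each, with median signals of 56.18 and 68.66 units under BSA and 27.44 and 41.99 units under both proteins. The summed leukocyte marker signal, relative to the array's 75th percentile, ranged over 7.323 to 8.192 on the BSA arrays, over 8.685 to 9.589 after Rspo2, over 7.052 to 7.619 after Wnt3a and over 5.032 to 5.489 after both proteins. Its brightest marker was *Cd14*, with unscaled median signals of 6239 units with BSA and 3364 units with both proteins. The summed basal or myoepithelial signal ranged over 132.7 to 140.4 with BSA and over 220.1 to 257.8 with both proteins, and the endothelial sum over 2.433 to 2.599 and over 1.634 to 1.75. The brightest markers carried these sums. In unscaled medians, *Acta2* went from 137700 units with BSA to 209700 with both proteins, and *Krt14* from 11140 to 23620. The medians of *Krt17* (869.8 and 609.8), *Trp63* (1400 and 1075), *Krt5* (63.02 and 59.48) and *Myh11* (19.37 and 14.9) were lower with both. The fibroblast sums, 202.1 to 223 and 218.7 to 224, overlapped, as did the luminal ones. *Vim* and *Col1a1* carried most of the fibroblast sum, with medians of 126100 and 71160 units with BSA and 137500 and 62880 with both. The other fibroblast medians were lower with both proteins, such as those of *Pdgfra* (2500 and 867.3) and *Col3a1* (5697 and 2755). The part of these signals in the chemokine results was not tested.

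With both proteins, 7 of the 10 chemokine probes whose detection did not rest on the BSA arrays alone were called lower than with BSA, and none was called higher. They came from 5 genes: *Ccl2*, *Ccl7*, *Ccl8*, *Ccl5* and *Ccl17*. Over all detected probes 3.79% were called lower and 5.08% in either direction. The median change of the 10 probes was -1.33 on the log2 scale, beside 0.04 for all detected probes. The 2 probes of *Ccl7* changed by -2.97 and -2.99 on the log2 scale, the *Ccl2* probe by -1.69 and the *Ccl5* probes by -1.40 and -1.26. The groups did not overlap for any of the 10 probes, as for 54% of all detected probes. With slide as a term, 6 of the 7 calls were made and that of *Ccl8* was not, beside 2.2% of all detected probes called in either direction. That fit reaches BSA only through Rspo2 replicate 1. *Ccl20* and *Ccl25* probe 3 were called as well, which makes 9 of 12, but they had been detected only where they were high. When only probes above background on every array were fitted, 6 of 9 chemokine probes were called lower with both proteins, 3 with Wnt3a and 3 with Rspo2, beside 2.99%, 1.16% and 0.186% of all such probes called lower and 3.86%, 1.39% and 0.24% in either direction.

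With Wnt3a alone, 4 of the 10 probes, from 3 genes, were lower than with BSA (*Ccl2*, both *Ccl7* probes and *Ccl8*) and none was called higher, beside 2.11% called lower and 2.52% in either direction over all detected probes. With Rspo2 alone, 3 probes of 2 genes were lower (*Ccl2* and both *Ccl7* probes), beside 0.62% called lower and 0.721% in either direction. The median changes of the 10 probes were -0.80 with Wnt3a and -0.52 with Rspo2, beside 0 and 0.01 for all detected probes. The 3 comparisons share the BSA arrays. Over all 12 probes, *Ccl20* and *Ccl25* probe 3 included, 6 were called with Wnt3a and 4 with Rspo2. The Rspo2 count over the 12 fell to 2 without Rspo2 replicate 1, where 1.06% of all probes were called, and to 0 with normexp background correction, where 0.0132% were. The Wnt3a count was 3 with slide as a term and 2 with normexp, beside 0.642% and 0.154% of all probes.

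**Figure D1:**
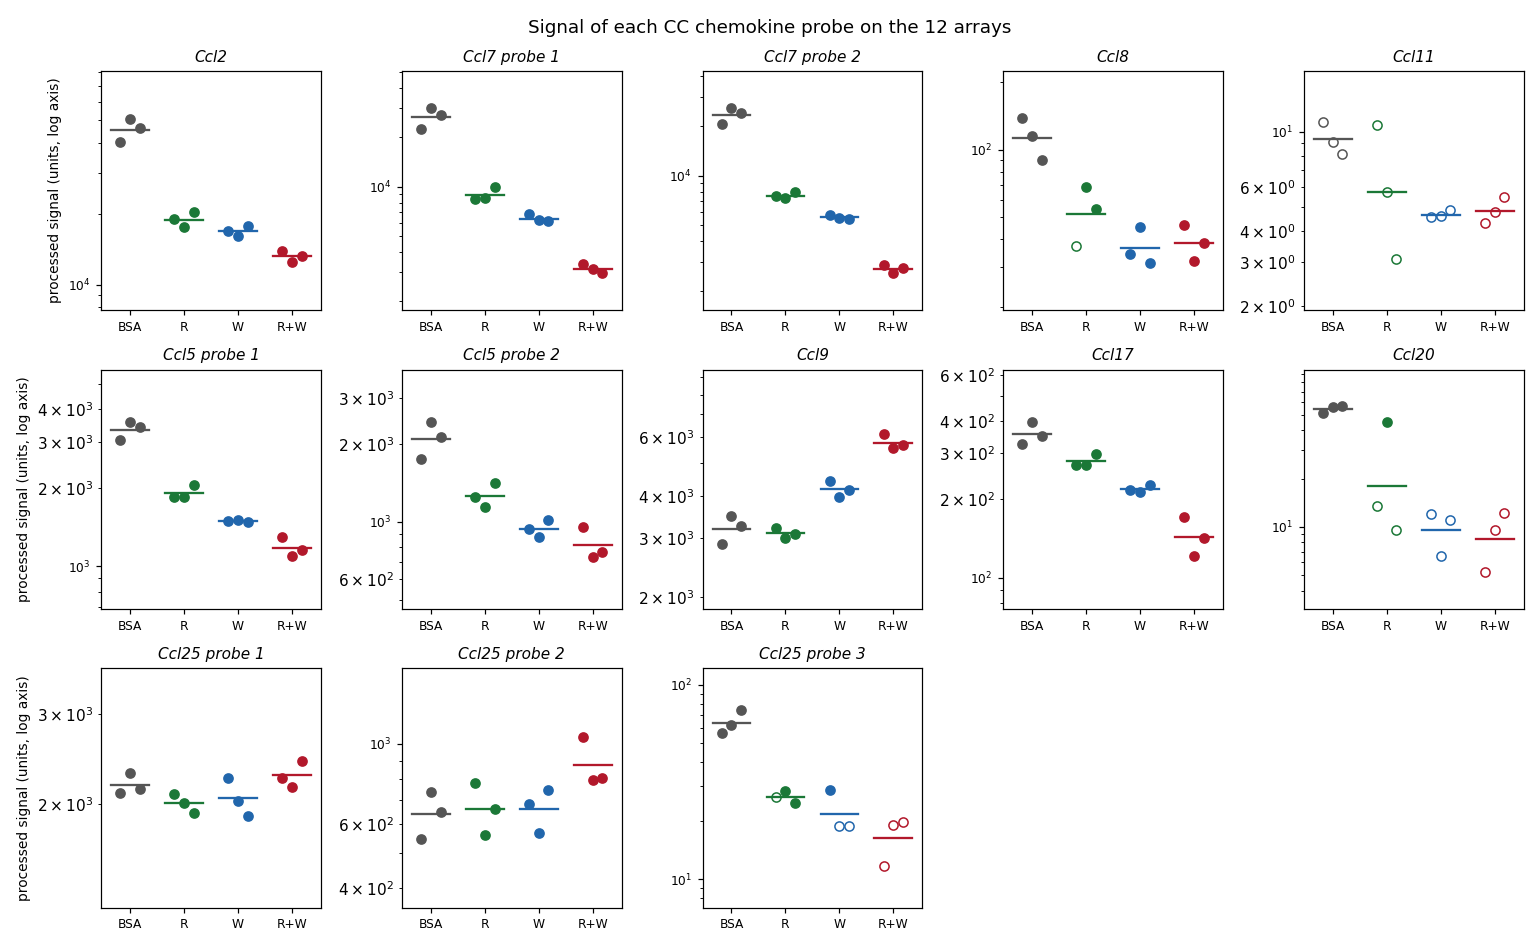
Processed signal (arbitrary units, log axis) of each chemokine probe on the 12 arrays, with BSA, Rspo2 (R), Wnt3a (W) or both (R+W). Points are arrays, open where the probe was not well above background, and lines are geometric means of the 3 arrays before scaling; both *Ccl7* probes step down from BSA to the arrays with both proteins, and *Ccl9* steps up.

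*Ccl7* encodes MCP-3, an attractant of monocytes. The signal of its probe 2 with BSA was 20590, 25660 and 23900 units. With Rspo2 it was 7508, 7304 and 7957 units, with Wnt3a 5805, 5511 and 5458 units, and with both proteins 2866, 2585 and 2759 units. All arrays of each group were lower than those of the group before, with no overlap. Relative to BSA, probe 2 changed by -1.38 ± 0.11 on the log2 scale with Rspo2 (SE, n = 3 per group, limma adjusted p = 0.000182), and by -1.70 ± 0.11 under Wnt3a (limma adjusted p = 1.4e-05). Both proteins together changed it by -2.99 ± 0.11 (limma adjusted p = 4.8e-08), which left 12.59% of the BSA level. Probe 1, at another position in the same transcript record, gave -1.33, -1.70 and -2.97, and over the 12 arrays the 2 probes had r = 0.999. The difference between Wnt3a and Rspo2 was -0.33 (95% interval -0.57 to -0.08, limma adjusted p = 0.202), so these neighbours in the order of levels did not differ at the threshold.

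*Ccl7* was also the only chemokine called lower with both proteins than with Wnt3a alone and than with Rspo2 alone. Relative to Wnt3a alone, probes 1 and 2 changed by -1.27 and -1.29 (limma adjusted p = 0.000505 and 9.01e-05), and they were the only 2 chemokine probes called, beside 0.334% of all detected probes called lower and 0.747% in either direction. Relative to Rspo2 alone they changed by -1.64 and -1.61 (limma adjusted p = 2.45e-05 and 4.92e-06). Within slide 3, the arrays with both proteins were 1.25 and 1.29 below Wnt3a replicate 3 on the log2 scale. The calls against Wnt3a alone were not made with normexp.

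*Ccl2* encodes MCP-1, the main attractant of monocytes through CCR2. Its signal, the mean of 10 spots per array, was 40610, 50580 and 46530 units with BSA and 19100, 17510 and 20300 units with Rspo2. It was 16960, 16110 and 17810 units with Wnt3a and 13910, 12530 and 13270 units with both proteins. Every treated array was below every BSA array, and the Rspo2 and Wnt3a arrays overlapped. Within an array the 10 spots had a coefficient of variation of 2.18% to 5.337%. Rspo2 changed it by -1.03 ± 0.12 (SE, n = 3 per group, limma adjusted p = 0.00182) and Wnt3a by -1.07 ± 0.12 (limma adjusted p = 0.000292). Both proteins together changed it by -1.69 ± 0.12 (limma adjusted p = 3.36e-06). The Rspo2 change lay near the 2-fold limit and went under it without Rspo2 replicate 1 (-0.94) or 2 (-0.98). It did not pass the adjusted p with normexp (-1.18, limma adjusted p = 0.282) or with the methods' t-test after adjustment. The Wnt3a change with normexp was -0.97 and did not pass either (limma adjusted p = 0.0937). With both proteins *Ccl2* was below Wnt3a alone by -0.61 (limma adjusted p = 0.0147) and below Rspo2 alone by -0.66 (adjusted p = 0.00334), each under 2-fold.

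*Ccl8* encodes MCP-2, another CC chemokine of the cluster. Its signals were low: 139.2, 115 and 90.26 units with BSA, and 37.35, 68.51 and 54.21 units with Rspo2, where replicate 1 was not well above background. They were 34.43, 45.14 and 31.16 units with Wnt3a and 46.06, 31.83 and 38.28 units with both proteins. The BSA arrays lay above all others, and the treated groups overlapped each other. The change was -1.28 ± 0.30 with Wnt3a (SE, n = 3 per group, limma adjusted p = 0.01) and -1.46 ± 0.30 with both (adjusted p = 0.0036). With Rspo2 it was -0.88 ± 0.30 and did not pass (limma adjusted p = 0.0669), and its sign turned to 0.10 with normexp. With slide as a term, the changes were larger, -2.18 with Wnt3a and -2.17 with both, and did not pass (limma adjusted p = 0.0752 and 0.0952). These values hang on Rspo2 replicate 1, where the probe was not well above background. Neither call was made with normexp (-0.74 and -0.97, limma adjusted p = 0.605 and 0.368) or with the methods' t-test after adjustment. With quantile normalization the Wnt3a change was -0.99, under 2-fold.

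*Ccl5* encodes RANTES, which attracts T cells and monocytes. Probe 1 read 3040, 3565 and 3414 units with BSA, 1850, 1846 and 2052 units with Rspo2, 1492, 1508 and 1483 units with Wnt3a and 1300, 1094 and 1158 units with both proteins. These probe 1 signals stepped down from group to group without overlap, although the scaled Rspo2 and Wnt3a values overlapped. Unscaled probe 2 signals overlapped between Wnt3a (934.2, 872.8 and 1017 units) and both proteins (959, 733.3 and 761.9 units), but the scaled ones did not. Relative to Wnt3a alone, the change with both was -0.60 for probe 1 and -0.47 for probe 2 (limma adjusted p = 0.029 and 0.158). The change with both proteins was -1.40 ± 0.13 (SE, n = 3 per group, limma adjusted p = 2.79e-05) for probe 1 and -1.26 ± 0.16 (adjusted p = 0.000237) for probe 2. With Wnt3a alone it was -0.80 and -0.79 (limma adjusted p = 0.002 and 0.00525), under 2-fold. With Rspo2 alone it was -0.56 and -0.48 (limma adjusted p = 0.0236 and 0.0652).

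*Ccl17* encodes TARC, a ligand of CCR4 on T cells. Its signals were 326.3, 395.6 and 349.4 units with BSA, 271.1, 271.8 and 299.6 units with Rspo2, 217.4, 212.5 and 226.2 units with Wnt3a, and 171.6, 120.7 and 141.6 units with both proteins. The arrays with both proteins lay below all others. The change against BSA was -1.21 ± 0.15 with both (SE, n = 3 per group, limma adjusted p = 0.000204), -0.35 ± 0.15 under Wnt3a (limma adjusted p = 0.11) and -0.10 ± 0.15 under Rspo2 (limma adjusted p = 0.671). Relative to Rspo2 alone the change with both was -1.11 ± 0.15 (limma adjusted p = 0.000643), which went under 2-fold without Rspo2 replicate 3. It was called there together with the *Ccl7* probes, 3 in all, beside 1.7% of all detected probes called lower and 2.67% in either direction. Relative to Wnt3a alone it was -0.87 ± 0.15 (limma adjusted p = 0.00911), under 2-fold.

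*Ccl20* encodes MIP-3α, the ligand of CCR6. With BSA it read 51.67, 55.67 and 56.73 units, all well above background. With Rspo2 it read 13.48, 45.17 and 9.577 units, of which only replicate 2 was well above background. With Wnt3a it read 12.05, 6.626 and 11.06 units and with both proteins 5.196, 9.598 and 12.13 units, with no array well above background. Replicate 2 of Rspo2 thus lay near the BSA arrays and apart from the other treated arrays. Since the treated signals are only bounds, *Ccl20* was at least 2.126-fold lower with Wnt3a and at least 2.447-fold lower with both proteins. These folds set the BSA mean against the lowest signal well above background on each treated array. Because the probe was detected only through BSA, the p-values are given from the fit with no filter on dim probes (limma adjusted p = 0.0279 and 0.00873), and they rest on treated signals below background. The change with Rspo2 was -1.36 ± 0.48 in the fit over detected probes (SE, n = 3 per group). In the fit with no filter it did not pass (limma adjusted p = 0.189). Without Rspo2 replicate 2 no Rspo2 array was well above background, and the signal was at least 1.792-fold lower than with BSA. With normexp the Rspo2 change was 0.20, and the calls with Wnt3a and with both were not made (-0.74 and -1.04, limma adjusted p = 0.68 and 0.425). These 2 calls were also not made with slide as a term (limma adjusted p = 0.169 and 0.135) or with the methods' t-test after adjustment.

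*Ccl25* encodes TECK, the ligand of CCR9, and its 3 probes disagreed. Probe 1 ranged from 1896 to 2431 units and probe 2 from 547.8 to 1042 units over the 12 arrays, and neither was called in any comparison. With both proteins probe 1 changed by 0.17 ± 0.08 (SE, n = 3 per group, limma adjusted p = 0.144) and probe 2 by 0.55 ± 0.15 (adjusted p = 0.0145). Probe 3 carries the gene's symbol in the files but another cDNA record, upstream of the other probes. It read 56.74, 62.09 and 73.77 units with BSA, 26.4, 28.43 and 24.66 units with Rspo2, 28.68, 18.9 and 18.72 units with Wnt3a and 11.74, 18.95 and 19.81 units with both proteins. All treated arrays were below the BSA arrays. It was well above background on 2 arrays with Rspo2, 1 with Wnt3a and none with both. Its changes were -1.03 with Rspo2 and -1.20 with Wnt3a, and it was at least 2.858-fold lower with both. In the fit with no filter on dim probes, since it was detected only through BSA, the Rspo2 change did not pass (limma adjusted p = 0.0644), and those with Wnt3a and both did (limma adjusted p = 0.00906 and 0.000371). None was called with slide as a term or with normexp, which turned the Rspo2 value to 0.23. Over the arrays, probes 2 and 3 had r = -0.869, so the values of probe 3 are given as those of the probe, not of the gene.

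*Ccl9* encodes MIP-1γ, a ligand of CCR1. It read 2876, 3480 and 3266 units with BSA, 3206, 3009 and 3081 units with Rspo2, 4439, 3973 and 4170 units with Wnt3a and 6096, 5565 and 5651 units with both proteins. The Wnt3a arrays were above all BSA and Rspo2 arrays, and the arrays with both proteins were above those. The change was 0.95 ± 0.09 with both (SE, n = 3 per group, limma adjusted p = 3.85e-05), 0.75 ± 0.09 under Wnt3a (limma adjusted p = 0.000627) and 0.20 ± 0.09 under Rspo2 (limma adjusted p = 0.165). These values stayed under 2-fold and were not called, although the change with both was 1.02 without replicate 3 of that group. With slide as a term the change with both was 0.69 (limma adjusted p = 0.144). Between Wnt3a and Rspo2 it was 0.55 ± 0.09 (limma adjusted p = 0.0183), and 0.47 within slide 2.

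**Figure D2:**
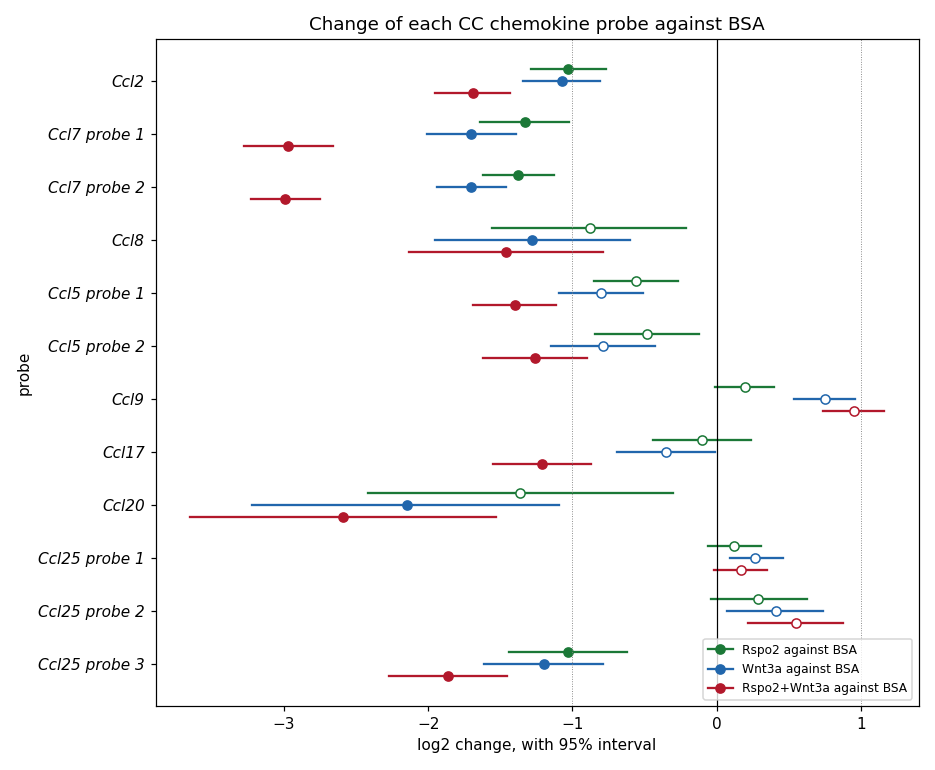
Log2 change against BSA of the 12 detected chemokine probes with Rspo2, Wnt3a or both (points, filled where called; bars, 95% intervals; dotted lines, 2-fold). Both *Ccl7* probes lie near -3 with both proteins, and *Ccl9* lies to the right of 0 at 0.95.

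No chemokine probe was called between Wnt3a and Rspo2 by limma, beside 0.202% of all detected probes. At an unadjusted p under 0.05, 3 probes passed (both *Ccl7* probes and *Ccl9*), beside 14.5% of all detected probes, and the methods' t-test with the 2-fold limit called 0, adjusted or not. The interaction compares the effect of the combination with the sum of the separate effects on the log2 scale. It was called for 0 of 12 probes, beside 1.93% of all detected probes, and 2 probes had an unadjusted limma p under 0.05, beside 29.3%. *Ccl17* had an interaction of -0.77 ± 0.22 (SE, n = 3 per group, limma adjusted p = 0.0528) and did not pass. The change with both lay below the sum of the separate changes. With quantile normalization the *Ccl17* interaction was -0.83 and passed the adjusted p (limma adjusted p = 0.0438), under 2-fold. *Ccl2* had one of 0.42 ± 0.17 (limma adjusted p = 0.132). With quantile normalization it was 0.71 and passed the adjusted p (limma adjusted p = 0.00624), under 2-fold. For *Ccl7* probe 2 it was 0.09 (95% interval -0.25 to 0.43).

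**Figure D3:**
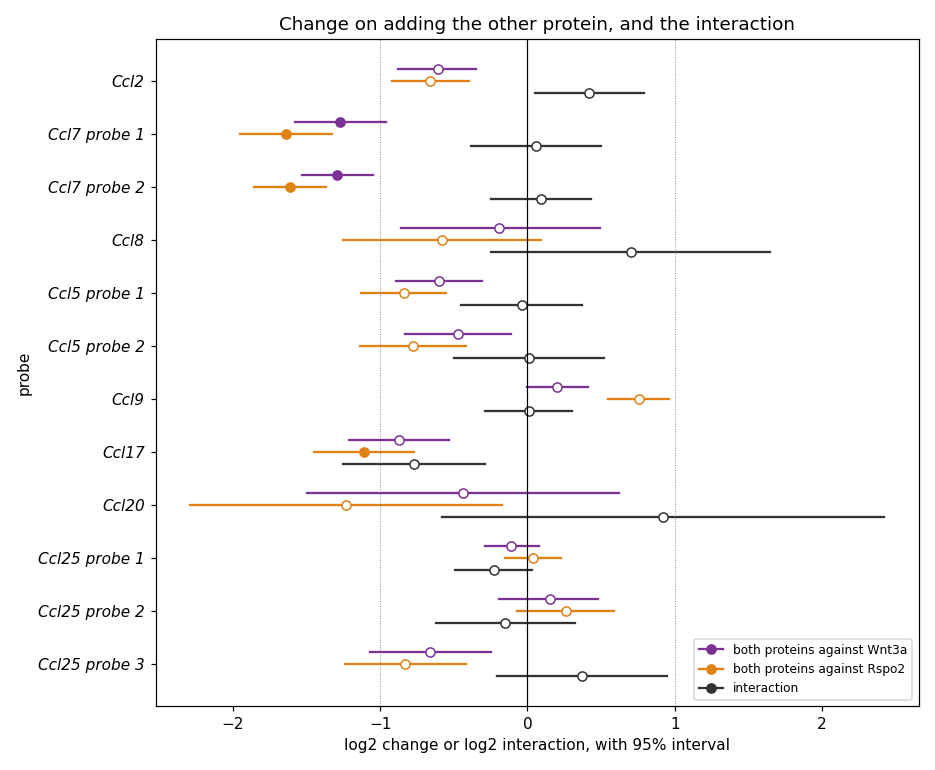
Log2 change of the 12 detected probes with both proteins against Wnt3a alone and against Rspo2 alone, and the log2 interaction (points, filled where called; bars, 95% intervals; dotted lines, 2-fold). The *Ccl7* probes are called against each protein alone, and *Ccl17* against Rspo2 alone.

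Without the 2-fold requirement, 10 of the 12 probes passed the adjusted p for Wnt3a against BSA, beside 31.5% of all detected probes. Of these, 8 were lower and 2 higher (*Ccl9* and *Ccl25* probe 1). The lower ones include *Ccl20* and *Ccl25* probe 3, which were detected only through BSA, where they were high. Adding Rspo2 to Wnt3a then gave 5 probes (*Ccl2*, both *Ccl7* probes, *Ccl5* probe 1 and *Ccl17*, all lower), beside 4.27%. Adding Wnt3a to Rspo2 gave 8 probes, beside 16.5%, of which *Ccl9* was higher and the others, *Ccl25* probe 3 among them, lower. Between Wnt3a and Rspo2 only *Ccl9* passed, beside 1.47%.

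Across the 12 arrays the log2 signals of the chemokines that fell moved together, as a description of samples that share treatments and slides. *Ccl7* probe 1 had r = 0.98 with *Ccl2*, 0.99 with *Ccl5* probe 1, 0.89 with *Ccl17*, 0.83 with *Ccl8* and 0.80 with *Ccl20*. With *Ccl9* it had r = -0.86. *Ccl20* was well above background on only 4 of 12 arrays, so its r values here and below rest mostly on signals not well above background. The genes most like *Ccl7* among all detected probes were *Osmr* (r = 0.987), *Traf1* (0.982) and *Npff* (0.98), and those most like *Ccl9* were *2010204K13Rik* (0.99), *Tpm1* (0.978) and *S100a10* (0.977). *Npff* was also the gene most like *Ccl2* (r = 0.982). *Camp* was most like *Ccl5* (0.981), *Prl2c3* most like *Ccl17* (0.982), *Zfp318* most like *Ccl8* (0.97), *Pcx* most like *Ccl20* (0.937) and *Hnrnpa1* most like *Ccl25* probe 1 (0.963).

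The other genes of the pathway were read from lists of ligands, receptors and drivers. Of 11 other CC ligand genes on the array, 3 were detected (*Ccl6*, *Ccl19* and *Ccl27*), and none was called in any comparison. *Ccl6* changed by 0.41, *Ccl19* by 0.08 and *Ccl27* by -0.17 with both proteins (limma adjusted p = 0.098, 0.793 and 0.391). Of 14 CC and scavenging receptor genes, 0 were detected. *Ccr6*, the receptor of Ccl20, was well above background on 7 of 12 arrays, but not on all 3 of any group.

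Of 27 factors and cytokines known to drive CC ligand genes, 22 were detected. With both proteins 1 was called higher and 2 lower, with Wnt3a 1 and 2, and with Rspo2 1 and 0, beside 5.08%, 2.52% and 0.721% of all detected probes called in either direction. The gene that rose was *Il33*, an alarmin of the interleukin 1 family, by 2.35 with Rspo2, 3.46 with Wnt3a and 5.07 with both (limma adjusted p = 4.58e-07, 7.5e-09 and 1.37e-10). *Irf7*, a factor of interferon responses, changed by -1.85 with both proteins, and *Stat2*, a mediator of type I interferon signalling, by -1.45 (limma adjusted p = 9.64e-06 and 2.3e-05). With Wnt3a they changed by -1.34 and -1.11 (limma adjusted p = 0.000302 and 0.000469). With slide as a term, neither call with Wnt3a was made, and with both proteins that of *Stat2* was not. Genes of the NF-kB system were not called: *Rela* changed by 0.07, *Nfkb1* by -0.68 and *Nfkbia* by -0.95 with both proteins (limma adjusted p = 0.595, 0.0114 and 0.000188). The cytokines *Tnf*, *Il1a*, *Il1b* and *Ifnb1* were well above background on 0 arrays.

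**Figure D4:**
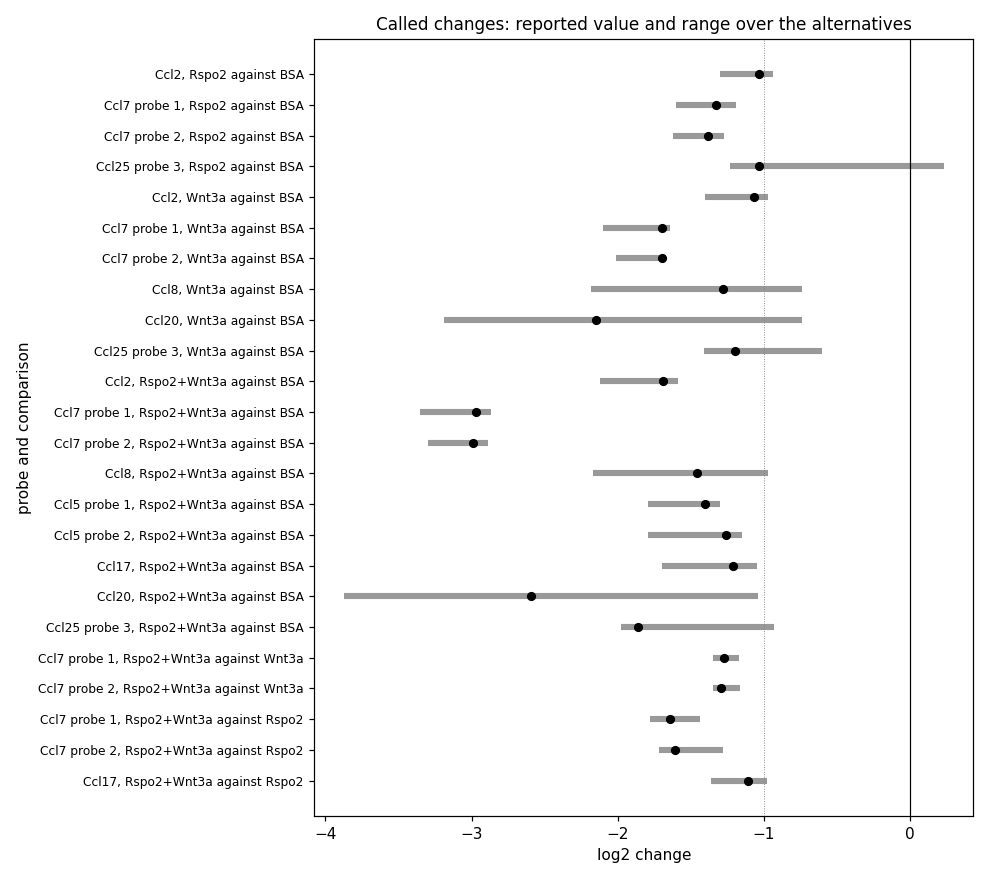
Log2 change of each called chemokine probe as reported (points) and its range over up to 27 alternative settings (grey bars), with 2-fold at the dotted line. The *Ccl7* and *Ccl5* ranges stay below -1, and *Ccl25* probe 3 with Rspo2 crosses 0.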

How the data were processed

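RNA of 12 cultures was hybridized to one-colour arrays, and the authors deposited 1 scanner file per array (Agilent Feature Extraction 9.5.3.1, per the submitters' processing notes). The deposited processed signals are spot intensities after background subtraction and detrending, not scaled between arrays. The deposited series table holds the ratio of each signal to its array's 75th percentile, made by the authors, and was used as an alternative. Of 520548 spot values, 1327 with outlier flags were left out, and no spot was saturated. Spots of a probe were averaged, log2 was taken and each array's 75th percentile subtracted. All 12 arrays entered 1 limma fit (limma 3.58.1, R 4.3.3), tested on simulated data, over 22751 detected probes, in 7 comparisons. Where a probe was not well above background on any array of a group, only a bound is given. Every chemokine probe is named, and for the lists the gene's probe with the highest mean signal was used. From each list, values were meant for the largest called changes; *Rela*, *Nfkb1*, *Nfkbia*, the 3 other ligands and *Ccr6* were named beyond that rule, after their values were seen. From the lists, 1 receptor gene and 1 marker gene are not reported here. The members and lists were chosen with earlier results of these data known. The number of arrays limits the precision. Alternatives were another background correction, scaling, filters, slide and replicate terms, the methods' t-test and leaving out each array. Figures were drawn with matplotlib 3.10.9.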

Additional observations from a re-analysis of the deposited data

How the results depend on the processing

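The counts of called probes were recomputed under 27 alternatives, of which 12 left out 1 array each. They include *Ccl20* and *Ccl25* probe 3 wherever these were tested. With normexp, 0 probes were called for Rspo2, 2 for Wnt3a and 0 for both proteins against Wnt3a. For Wnt3a, 3 were called when only probes above background on every array were tested and 3 with slide as a term. The methods' t-test with Benjamini-Hochberg adjustment called 0 for Rspo2, 3 for Wnt3a, 5 for both, 0 for both against Wnt3a and 0 for both against Rspo2, and unadjusted it called 4, 6, 9, 2 and 3. With no fold requirement, 10 were called for Wnt3a, 5 for both against Wnt3a, 8 for both against Rspo2 and 1 for Wnt3a against Rspo2. Leaving out 1 array gave 2 to 4 for Rspo2 (2 without Rspo2 replicate 1), 6 for Wnt3a, 9 to 10 for both, 2 to 3 for both against Wnt3a (3 without replicate 1 of both, where *Ccl17* was added) and 2 to 3 for both against Rspo2. Replicate numbers did not pair the cultures (18 correlations of deviations, 4 over 0.1, from -0.41 to 0.27), and with the replicate block the counts were 4, 6, 9, 2, 3, 0 and 0. Slide as a random block had a correlation of 0.136. The cause of these changes was not tested.

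Of 2211 probe values under the alternatives, 39 turned their sign, 38 of them for changes that were called under neither setting. Under normexp these were, for Rspo2 against BSA, *Ccl8* (0.10), *Ccl17* (0.15), *Ccl20* (0.20) and *Ccl25* probe 3 (0.23, called as reported); *Ccl2* for Wnt3a against Rspo2 (0.21); and the interactions of *Ccl8* (-0.33), *Ccl20* (-0.49) and *Ccl25* probe 3 (-0.56). Normexp also moved the median of all probes for Rspo2 to 0.15. The *Ccl5* probe 1 interaction turned to 0.06 with quantile normalization, 0.07 with the percentile over probes above background on all arrays, 0.18 with slide as a term and 0.01 with slide as a random block. Quantile normalization gave -0.11 for the *Ccl25* probe 3 interaction, and the series table gave 0 for *Ccl20* with both proteins against Wnt3a. Slide as a term gave -0.01 for *Ccl25* probe 1 with Rspo2, 0.01 for *Ccl8* and -0.06 for *Ccl25* probe 2 with both against Wnt3a, and -0.03 for *Ccl25* probe 2 with both against Rspo2. Leaving out 1 array turned the sign of results within these ranges: the interactions of *Ccl5* probe 1 (-0.16 to 0.10), *Ccl5* probe 2 (-0.14 to 0.18), *Ccl7* probe 1 (-0.08 to 0.22), *Ccl7* probe 2 (-0.02 to 0.21) and *Ccl9* (-0.06 to 0.09); *Ccl17* with Rspo2 (-0.23 to 0.02); *Ccl2* for Wnt3a against Rspo2 (-0.14 to 0.09); *Ccl25* probe 1 for both against Rspo2 (-0.03 to 0.10); and *Ccl8* (-0.35 to 0.01) and *Ccl25* probe 2 (-0.01 to 0.26) for both against Wnt3a. Signals near background limit *Ccl8*, *Ccl20* and *Ccl25* probe 3.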
